A study of Mus musculus with 18 samples.

Results

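The nuclear-encoded subunits of the mitochondrial respiratory chain and ATP synthase were examined across the brain of WT and Pcm1-/- mice. Members were the protein-coding nuclear genes whose symbols match patterns for subunits of complex I (Nduf), II (Sdh), III (Uqcr, Cyc1), IV (Cox4 to Cox8) or V (Atp5). The files held counts for 85 genes with such symbols, and the 82 with 10 or more counts in at least 1 of 18 libraries were kept, out of 17545 genes that met the same minimum and 38561 genes counted. A subunit whose symbol falls outside the patterns, such as Ndufab1, is not a member. Of the 82 members, 35 belong to complex I, 4 to complex II, 9 to complex III, 19 to complex IV and 15 to complex V, with Ndufa4 and Ndufa4l2 placed in complex IV. The 3 genes below the minimum were Atp5g2, Atp5l and Cox8c, which reached 4, 7 and 1 counts. Just above the minimum were Ndufs5 and Cox7b2, with highest counts of 11 and 18.

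Oxidative phosphorylation moves electrons from NADH and succinate through complexes I to IV to oxygen, and complex V uses the proton gradient that complexes I, III and IV build to make ATP. Most subunits are encoded in the nucleus and imported, and they assemble with core subunits encoded by the mitochondrial genome. Neurons depend heavily on this system to restore ion gradients after synaptic activity, and several complex IV subunits exist as paired isoforms with restricted tissue expression.

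Messenger RNA was sequenced from frontal cortex, striatum and hippocampus of 3 adult WT and 3 adult Pcm1-/- littermates on the C57 Bl6J background, giving 3 libraries per genotype and region. The mutant allele is a gene-trap insertion in Pcm1, which encodes a centriolar satellite protein, and the mutants carried it in every tissue. Animal numbers in the deposited names show that the 3 regions came from the same 6 animals. The tissue was not sorted, so a difference in the number of cells of a type and a difference in RNA per cell cannot be told apart. Below, KO in a comparison means Pcm1-/-.

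Between 24950537 and 33405081 reads per library were assigned to genes. Pcm1 measured 119.9, 133.1 and 148.7 CPM (counts scaled to library size with TMM factors) in WT frontal cortex against 12.16, 12.23 and 12.16 CPM in mutants. It was lower in every mutant library of the other regions too, so every library matched its genotype label. All 9 striatal markers were called higher in WT striatum than in WT frontal cortex, and 7 of 10 hippocampal markers were called higher in WT hippocampus than in WT frontal cortex. Choroid plexus was present unevenly: Ttr, its main transcript, was at 5621 CPM in WT striatum replicate 3 but at 25.3 and 25.4 CPM in the other WT striatum libraries. WT hippocampus replicate 1 had the lowest median level of the members, with a median deviation of -0.16 from the mean of all libraries on the log2 scale, and also the largest share of counts on the mitochondrial genome, 7.55%. All 3 WT striatum libraries shared lane 5 and no mutant striatum library was on it, so there the genotype and the lane cannot be told apart.

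The members took a small and steady share of the transcriptome. They made up between 0.673% and 0.815% of the counts on genes in the 18 libraries. Levels of different genes were compared per length, as TPM (counts divided by length and scaled to the same total in each library) over the length of the principal transcript, with the length of all annotated exons as a second scale. On the first scale the member with the highest level was Atp5b, the catalytic beta subunit of ATP synthase, at 1436 ± 104 TPM (SD, n = 18), and the next were Cox4i1, the main isoform of complex IV subunit 4, at 1086 ± 138 TPM and Cox6a1 at 1030 ± 77.0 TPM. The order depends on the length used, because over all annotated exons Cox6a1 led with 1159 ± 90.6 TPM and Atp5b measured 899 ± 71.3 TPM.

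Within each complex the subunit transcripts were far from equal in level. The complex I members ran from Ndufs5 at 0.716 TPM to Ndufb8 at 451 TPM, with a median of 182 TPM. Over all annotated exons Ndufb9 was highest at 423 TPM and Ndufb8 measured 135 TPM, so ranks within a complex depend on the length used. The complex II members were closest together, from the membrane anchor Sdhc at 67.2 ± 7.21 TPM to the flavoprotein Sdha at 373 ± 25.2 TPM. Sdhc had 1504 to 2648 counts per library over 3171 bases, and Sdhd 1254 to 2202 over 1231 bases. In complex III, Uqcrb was lowest at 75.3 ± 14.0 TPM and the hinge protein Uqcrh was highest at 423 ± 23.6 TPM. In complex IV the isoforms with restricted expression, such as Cox7b2 at 1.65 ± 0.784 TPM and Cox4i2 at 4.39 ± 1.70 TPM, sat far below the main isoforms. In complex V, Atp5g1, one of the genes for subunit c, was lowest at 7.59 ± 1.32 TPM. Its principal transcript has 4715 bases, beside 723 for Atp5g3, which lowers its level per length.

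**Figure D1:**
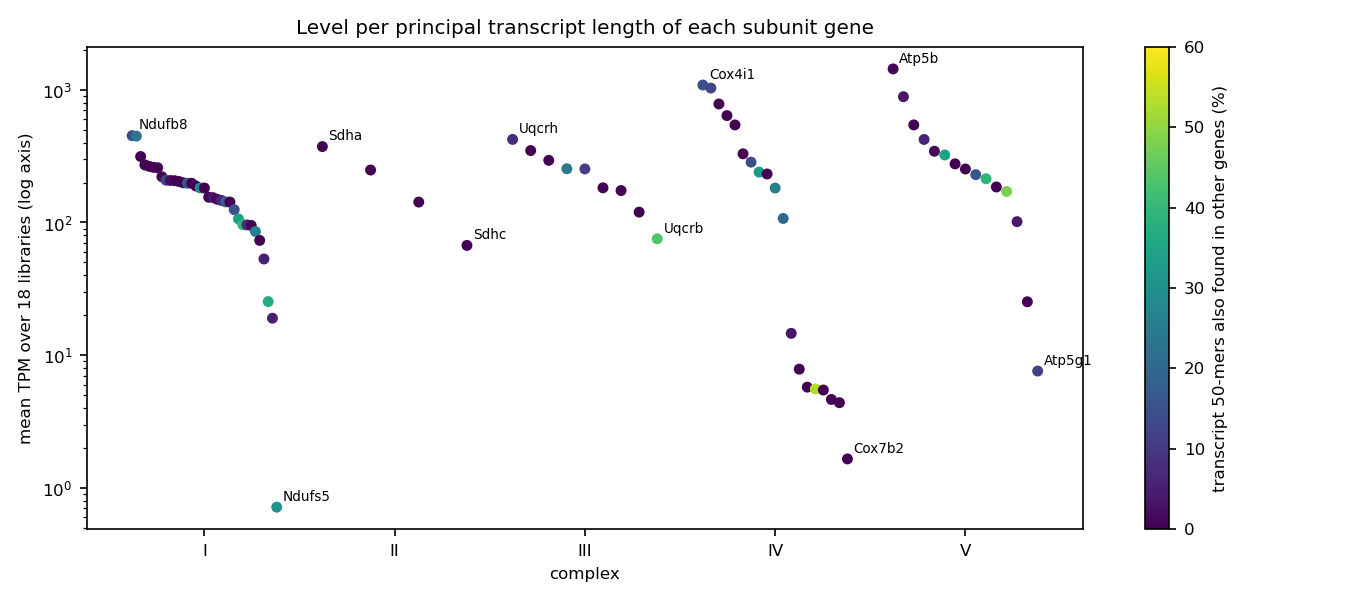
Mean level over 18 libraries (TPM per principal transcript length, log axis) of each of the 82 members, by complex and ordered by level within a complex; each point is a gene and its colour is the percentage of the transcript's 50-base words that also occur in transcripts of other genes. Atp5b stands highest at 1436 TPM and Ndufs5 lowest at 0.716 TPM, and the members of lowest level in complexes I and III are among those that share many words with other genes.

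Many members share sequence with other genes. The authors kept reads with a single position in the genome, and OXPHOS genes have many processed pseudogene copies. Of the 50-base words of the principal transcript, 53.0% in Cox7c, 47.9% in Atp5h, 43.4% in Uqcrb and 31.1% in Ndufs5 also occurred in transcripts of other genes, and for Atp5g2 and Atp5l, below the count minimum, the shares were 87.4% and 84.8%. In 15 of 82 members the share was above 20%, and in 38 it was 0. Ndufb6, Ndufb9, Uqcrc2 and Cox5b are among the 15 but share words with no pseudogene. Ndufb6, Ndufb9 and Uqcrc2 overlap another gene on the genome. Reads from words shared with an overlapping gene can still have a single position. A high share did not always go with a low level, since Atp5h was at 171 TPM and Cox5a, with 32.0% shared, at 240 TPM (principal transcript length), while Cox7b2 and Cox4i2 shared none. Cox7c, an obligate subunit of complex IV, had at most 50 counts in any library. The level of genes with a high share is uncertain, and differences between groups compare the reads that could be placed.

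The promoters of the members were read from RefSeq (GRCm38.p6), which gave windows of 250 bases before to 50 bases after the annotated start for 64 of the 82 members. Searched on both strands, the NRF1 letters GCGCATGCG were in 6 of the 64 genes (9.38%) and in 3.55% of 12031 protein-coding genes tested. The letters AAGATGGCG of the YY1 motif were in 7 members (10.9%) against 2.98% of those genes, TCAAGGTCA of the estrogen-related receptors was in 2 (3.12%) against 0.341%, and CCGGAAGTG of GABPA was in 2 (3.12%) against 4.15%. A match describes the letters of the window and does not show a binding site. The stretches below show 1 example of each motif in its promoter, 5′ to 3′ on the strand of the gene, with the match in capitals. For Atp5g3 and Uqcrh the capitals are the reverse complement, since the match lies on the opposite strand.
Cox6a1, NRF1, chr5:115349092-115349140 (-): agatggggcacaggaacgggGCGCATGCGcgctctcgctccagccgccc
Atp5j, YY1, chr16:84835036-84835084 (-): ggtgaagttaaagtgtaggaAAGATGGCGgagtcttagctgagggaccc
Atp5g3, estrogen-related receptor, chr2:73911350-73911398 (-): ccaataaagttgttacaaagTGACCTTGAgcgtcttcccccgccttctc
Uqcrh, GABPA, chr4:116075071-116075102 (-): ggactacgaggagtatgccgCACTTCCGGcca

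Summed over all members, the level was close to the same in the 6 groups. In frontal cortex it was 7590 ± 379 CPM in WT (SD, n = 3) and 7961 ± 216 CPM in mutants, then 7565 ± 73.8 and 7621 ± 236 CPM in striatum, and 7151 ± 427 and 7389 ± 79.5 CPM in hippocampus. The genotypes overlapped in each region, with the lowest sum, 6664 CPM, in WT hippocampus replicate 1 and the highest, 8151 CPM, in Pcm1-/- frontal cortex replicate 1. Complex IV stood lower outside the cortex in both genotypes, at 1412 ± 121 CPM in WT frontal cortex against 1276 ± 10.1 CPM in WT striatum and 1222 ± 61.4 CPM in WT hippocampus, although WT frontal cortex replicate 3, at 1272 CPM, lay inside the range of the other regions. In frontal cortex the libraries did not overlap between genotypes for complex II, at 620 ± 3.74 CPM in WT and 640 ± 10.3 CPM in mutants, nor for complex V, at 2646 ± 100.4 and 2830 ± 78.5 CPM.

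**Figure D2:**
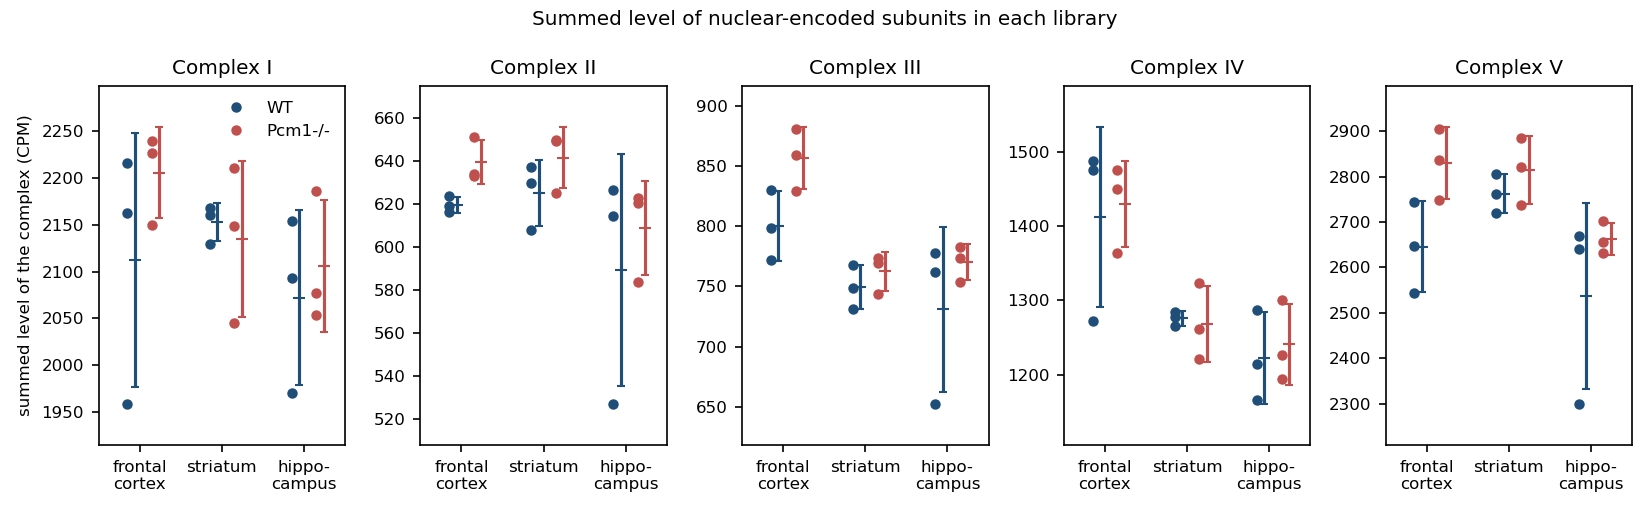
Summed CPM of the members of each complex in every library, by region and genotype; points are libraries, and the bars beside them are the group mean ± SD (n = 3); the axes do not start at 0. WT hippocampus replicate 1 is the lowest point for complexes II, III and V, and the frontal cortex points of complexes II and V do not overlap between genotypes.

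The first comparison asked whether loss of Pcm1 changed the level of these transcripts in any region. No member was called in any of the 3 regions at an adjusted p of 0.05 (edgeR, quasi-likelihood, adjusted by Benjamini-Hochberg over all genes), where 1.74% of all genes tested were called in frontal cortex, 0.0285% in striatum and 0.0171% in hippocampus. At an unadjusted p under 0.05 there were 10 members in frontal cortex, all higher in Pcm1-/- (12.2% of members, against 15.3% of all genes), 1 in striatum (against 13.5%) and 1 in hippocampus (against 9.89%). DESeq2 called 1, 0 and 0 members, where it called 3.92%, 2.78% and 1.21% of all genes. The 3 libraries of a group came from separate animals by the deposited names, and the p-values rest on the spread between them.

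The differences were small on both sides of zero. The median log2 fold change (Pcm1-/- over WT) of the 82 members was 0.05 in frontal cortex, 0.00 in striatum and 0.01 in hippocampus, beside medians of -0.01, 0.00 and 0.00 over all genes tested. The median size of the change, whatever its sign, was 0.08, 0.06 and 0.07 on the log2 scale, with a median standard error of 0.07, 0.07 and 0.10. The cortical median rested on 1 library, being -0.0093 without WT frontal cortex replicate 3. In frontal cortex 55 of 82 members had a positive estimate, in striatum 45 and in hippocampus 43. In frontal cortex the 3 WT and 3 Pcm1-/- libraries did not overlap for 18 members, 17 of them higher in mutants, where 21.3% of all genes did not overlap. In striatum as many of the members without overlap were higher as lower, and in hippocampus the genotypes overlapped for every member. The share of counts on the mitochondrial genome was lower in all 3 mutant cortex libraries, 3.20% to 3.56% against 4.05% to 5.65% in WT. An alternative fit without the mitochondrial-genome genes also called no member in any region. The part of this share in the values was not tested further.

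The member with the smallest adjusted p was Atp5g3 (ENSMUSG00000018770, chr2:73908447-73911326, minus strand), which encodes the c subunit that forms the rotor ring of ATP synthase. It measured 126.0, 130.2 and 137.3 CPM in WT frontal cortex and 153.3, 154.5 and 150.4 CPM in Pcm1-/- frontal cortex. The groups did not overlap, and the log2 fold change was 0.21 (SE 0.05, edgeR adjusted p = 0.096), with an adjusted p between 0.030 and 0.687 over the alternatives. DESeq2 was the tool that called it, and without WT frontal cortex replicate 3 edgeR called it too, at an adjusted p of 0.030. In striatum it was at 144.7, 141.1 and 124.3 CPM in WT and 148.0, 146.0 and 161.5 CPM in mutants (adjusted p = 0.418), and in hippocampus the genotypes overlapped.

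The Rieske iron-sulfur protein of complex III, Uqcrfs1, gave a log2 fold change of 0.17 in frontal cortex (edgeR adjusted p = 0.220), from 78.2, 84.2 and 87.9 CPM in WT to 98.0, 90.8 and 94.3 CPM in mutants. Its complex III partner Uqcr10 had the smallest adjusted p in striatum, 0.272, at 49.0, 49.3 and 47.9 CPM in WT and 51.8, 57.9 and 55.6 CPM in Pcm1-/-. In hippocampus the smallest was that of Cox7a2l, placed in complex IV, at 47.4, 44.2 and 39.1 CPM in WT and 38.5, 39.5 and 34.9 CPM in mutants, with overlapping groups (log2 fold change -0.23, adjusted p = 0.484). Cox6a2, a complex IV isoform of heart and skeletal muscle, had estimates of 0.28, -0.37 and -0.64 in the 3 regions (adjusted p = 0.691, 0.380 and 0.544), and the cortical value turned to -0.03 without WT frontal cortex replicate 3, the library that held 1.99 CPM beside 4.59 and 5.06 CPM in the other WT cortices.

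The most extreme estimates belonged to members with few reads, such as Ndufs5, with 11 counts or fewer in every library, at -1.02, 0.72 and -0.92 in the 3 regions (edgeR adjusted p = 0.420, 0.655 and 0.646), and Cox8b at -1.53 in striatum (adjusted p = 0.453). Among members with a mean log2 CPM of 1 or more, the largest negative estimates in frontal cortex were those of Atp5s, Cox8a and Atp5h, at -0.15, -0.13 and -0.10 (edgeR adjusted p = 0.396, 0.607 and 0.676). Among the same members in striatum they were those of Ndufa12 and Ndufs6, after Cox6a2, at -0.21 and -0.15 (adjusted p = 0.392 and 0.538). The small complex V subunit Atp5e had the largest positive estimate among them in striatum and in hippocampus, 0.25 in each (adjusted p = 0.493 and 0.770).

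By complex, the medians in frontal cortex were 0.05 for complex I, 0.04 for complex II, 0.11 for complex III, 0.01 for complex IV and 0.06 for complex V. Complex IV had the lowest median of the 5 in striatum, -0.10, and in hippocampus, -0.08. The 23 catalytic or core subunits had medians of 0.07, 0.04 and 0.04, with 0 called by edgeR in any region and 3, 0 and 0 at an unadjusted p under 0.05, of which the 3 in cortex are 13.0% beside 15.3% of all genes. Ndufa13, Ndufb7 and Cox4i1 lie on chromosome 8 with Pcm1, 28.6, 42.2 and 79.3 Mb from it, and their log2 fold changes ran from -0.09 to 0.13 over the 3 regions. A genotype effect that differed between regions was not called for any member by edgeR (0.0114% of all genes were), with 0 members at an unadjusted p under 0.05 and the smallest, 0.068, for Cox7a1.

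**Figure D3:**
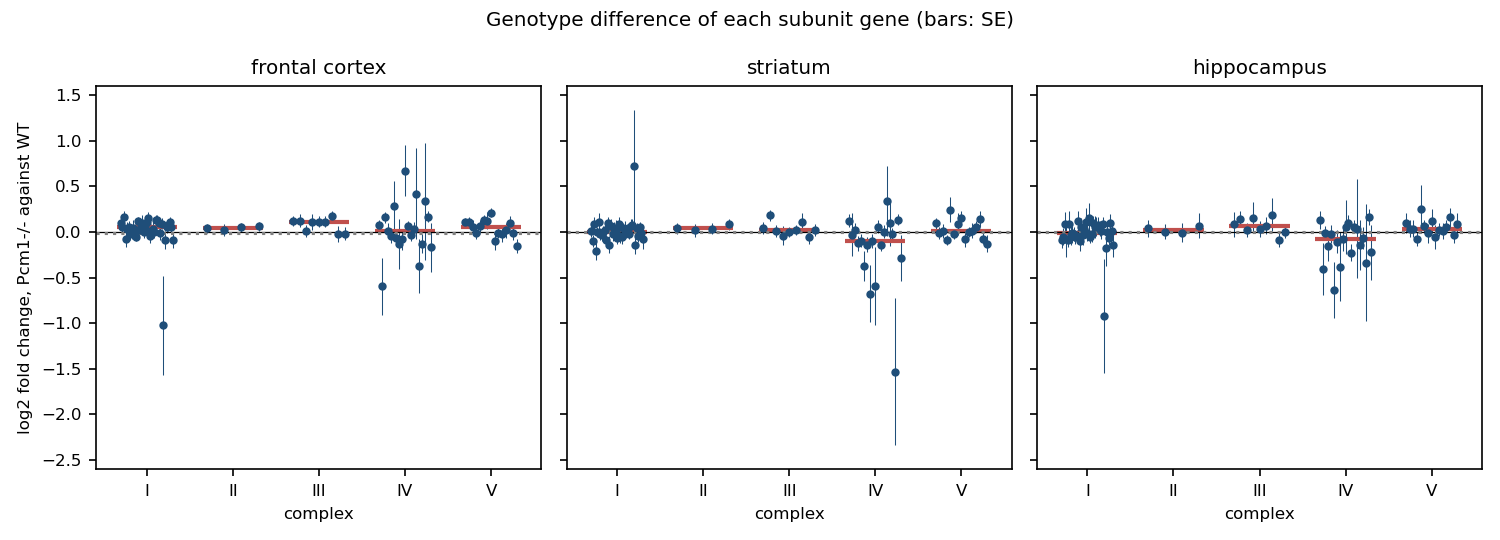
Log2 fold change of each member, Pcm1-/- over WT, in each region, grouped by complex; each point is a gene with its SE from the edgeR fit, red lines are the medians of a complex and the dotted line is the median of all genes. Most points lie close to zero in all 3 regions and none passed the adjusted threshold.

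No complex I assembly factor (16 tested), other assembly factor (31), regulator of mitochondrial biogenesis (21), tricarboxylic acid cycle enzyme (17) or gene of the list of electron transfer partners and subunits outside the symbol patterns (15) was called by genotype in any region by edgeR. At an unadjusted p under 0.05 these lists had 2, 5, 4, 4 and 1 genes in frontal cortex, which is 12.5%, 16.1%, 19.0%, 23.5% and 6.67% of each beside 15.3% of all genes, and at most 2 each in the other regions. Of 13 mRNAs of the mitochondrial genome 7 were tested, and in each group 6 of the 13 had no counts. All 7 had negative estimates in Pcm1-/- frontal cortex, from -0.50 to -0.63, each at an unadjusted p under 0.05 (15.3% of all genes were). Of the 7, 4 were called lower there, where 1.74% of all genes were called. These were mt-Co1 at a log2 fold change of -0.56 (edgeR adjusted p = 0.047), mt-Nd5 at -0.63 (0.039), mt-Nd6 at -0.63 (0.047) and mt-Cytb at -0.56 (0.045). By edgeR 0 of the 7 were called in striatum or hippocampus, with 2 and 0 at an unadjusted p under 0.05, and their medians there were -0.23 and -0.45.

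Cell type markers also differed between the genotypes. All 10 oligodendrocyte markers had negative estimates in each region, with 1 called in cortex, where their summed level was 2173 to 2874 CPM in WT and 1930 to 2044 CPM in mutants. All 10 endothelial and mural markers had negative estimates in cortex, with 1 called and sums of 317 to 434 and 298 to 306 CPM, and all 10 microglial markers did so with 0 called, 6 at an unadjusted p under 0.05 and sums of 482 to 636 and 417 to 482 CPM. In striatum the 10 microglial markers were again negative, with 0 called, 9 at an unadjusted p under 0.05 and a median of -0.43, and in hippocampus the 10 endothelial and mural markers, with 0 called, 7 at an unadjusted p under 0.05 and a median of -0.42. Neuron markers in cortex were mixed, with 6 positive and 4 negative estimates, a median log2 fold change of 0.04 and 2 of 10 called higher, and with sums of 11669 to 12870 CPM in WT and 12962 to 13423 CPM in mutants, and parvalbumin interneuron markers had 1 of 6 called higher, with sums of 907 to 1050 and 1095 to 1141 CPM. The 5 blood markers had 0 called and 5 at an unadjusted p under 0.05 in each region, and their sum was 109 to 175 CPM in WT and 35.8 to 79.0 CPM in mutant cortex, 125 to 216 and 33.3 to 69.8 CPM in hippocampus, and 71.8 to 227 and 43.9 to 92.2 CPM in striatum. Beyond the fit without the mitochondrial-genome genes, the part of cell makeup or of the mitochondrial transcripts in the members' values was not tested.

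The second comparison was between regions of the same WT animals. In WT striatum against frontal cortex 11 of 82 members were called, 7 higher and 4 lower, where 41.5% of all genes were called. Hippocampus against frontal cortex gave 6 (2 higher, 4 lower; 29.8% of all genes), and striatum against hippocampus 8 (7 higher, 1 lower; 29.2%). With the animal as a block the counts were 17, 13 and 12, where 48.1%, 37.0% and 35.1% of all genes were called. Leaving out 1 library gave 7 to 9, 4 to 10 and 2 to 8 members, with 7 in the first comparison without WT striatum replicate 1 or WT frontal cortex replicate 1. The second gave 10 without WT frontal cortex replicate 3 or WT hippocampus replicate 3, and the last gave 2 without WT striatum replicate 1 and 3 without WT striatum replicate 2 or WT hippocampus replicate 1. The median size of the regional change was 0.12, 0.14 and 0.10 on the log2 scale for the members and 0.37, 0.29 and 0.28 for all genes, and among genes whose average log2 CPM reached 5 it was 0.11, 0.12 and 0.10 beside 0.29, 0.21 and 0.21.

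Of the complex I members, 3 were called higher in WT striatum than in WT frontal cortex and 1, Ndufa8, was called lower. In mutants the same comparison called 5 of them higher and 6 lower. Ndufb10 measured 74.9, 73.6 and 60.9 CPM in WT frontal cortex and 89.0, 99.4 and 110.2 CPM in WT striatum, without overlap (log2 fold change 0.52, SE 0.11, edgeR adjusted p = 0.0037). Ndufa1 rose from 29.9, 28.7 and 25.2 CPM to 39.4, 38.1 and 37.9 CPM (0.47, adjusted p = 0.0023), and Ndufs4, needed late in complex I assembly, by 0.24 (adjusted p = 0.0327). Uqcrb, which binds ubiquinone in complex III, was at 12.2, 11.95 and 12.9 CPM in cortex, 19.3, 17.9 and 15.4 CPM in striatum and 9.90, 11.8 and 14.0 CPM in hippocampus. Its striatal level was above both other regions (0.51 and 0.56, adjusted p = 0.0138 and 0.0113), with the limit on reads that share sequence given above. Sdhc was higher in striatum than in cortex by 0.27 and than in hippocampus by 0.21 (adjusted p = 0.0094 and 0.0443).

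Members lower outside the cortex included subunits of complexes IV and V. In WT striatum against cortex, complex IV had 1 member called lower and 2 called higher, Cox7a2l and Cox6b2. Complex V had 2 called lower there, Atp5g1 and Atp5d, and 0 higher. Cox8a, the ubiquitous isoform of complex IV subunit 8, fell from 206.6, 201.9 and 158.7 CPM in cortex to 127.5, 120.1 and 136.9 CPM in striatum (log2 fold change -0.56, edgeR adjusted p = 0.0046). Cox4i1 was at 324.4, 319.9 and 302.8 CPM in cortex and 218.9, 244.9 and 258.7 CPM in hippocampus (-0.39, adjusted p = 0.0060), and Atp5j2, Cox7a2 and Cox7b were lower there by -0.38, -0.36 and -0.30. Atp5g1 was lowest in striatum, at 9.19, 11.1 and 9.29 CPM beside 14.4, 12.02 and 12.1 CPM in cortex and 15.9, 13.4 and 13.9 CPM in hippocampus (-0.38 and -0.54, adjusted p = 0.0325 and 0.0077). Cell type markers differed between the regions too: summed neuron markers were 11669 to 12870 CPM in WT cortex, 6553 to 6833 CPM in WT striatum and 8372 to 10006 CPM in WT hippocampus, and summed oligodendrocyte markers 2173 to 2874, 10040 to 10332 and 5352 to 10533 CPM. Their part in the regional values was not tested.

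**Figure D4:**
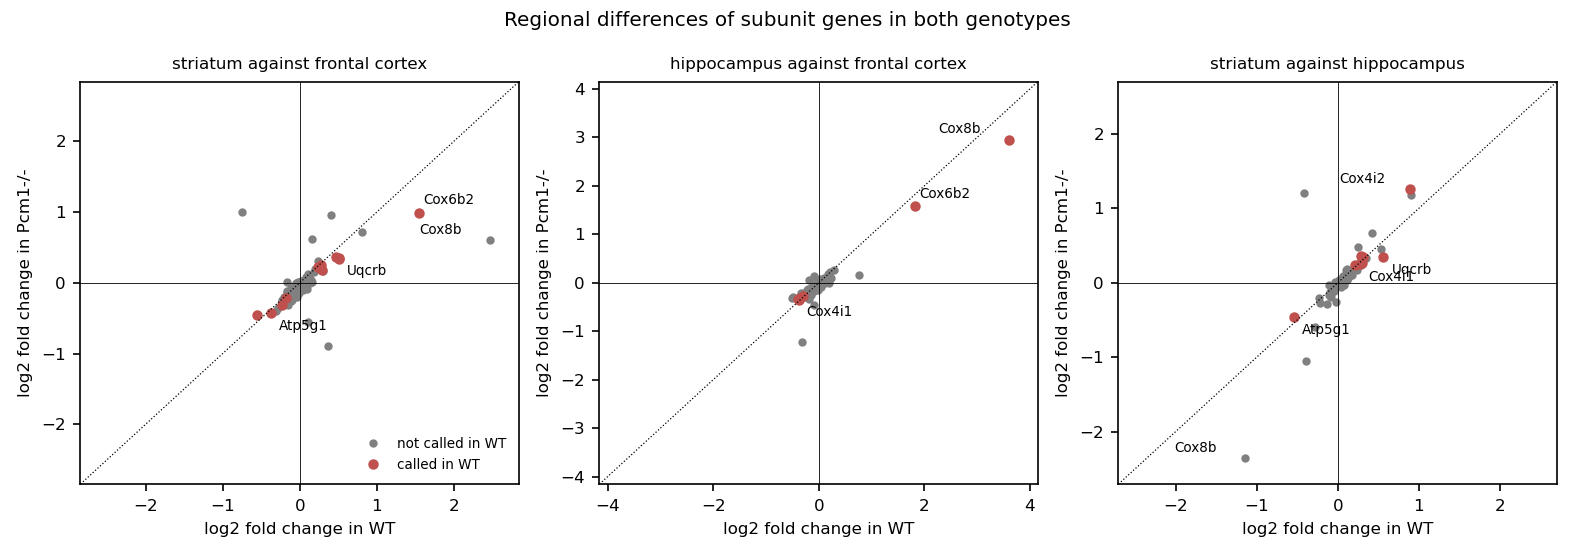
Log2 fold change of each member between regions in WT and in Pcm1-/- mice; each point is a gene. Members called in WT lie on the same side of zero in the mutants in each comparison.

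In Pcm1-/- mice the same comparisons called 29, 21 and 24 members, where 54.3%, 41.5% and 45.0% of all genes were called. Higher and lower calls were 10 and 19, then 2 and 19, then 17 and 7. These fits did not take the animal as a block. Leaving out 1 library gave 23 to 25, 14 to 28 and 13 to 29, with 14 in the second without frontal cortex replicate 1, and in the last 13 without striatum replicate 3 and 14 without striatum replicate 2 or hippocampus replicate 1. Of the members called lower than in mutant cortex, complexes I, III, IV and V held 6, 3, 6 and 4 in striatum and 6, 3, 7 and 3 in hippocampus. All 11, 6 and 8 members called in WT were also called in the mutants in the same direction, which was 37.9%, 28.6% and 33.3% of the mutant calls. The share of WT calls that recurred in mutants over all genes was not computed. Libraries of a group varied more in the WT fit, with a biological coefficient of variation of 15.5% beside 10.9% in mutants, and whether the genotypes differ in their number of regional calls was not tested. Over the 82 members, Pearson's r between the WT and the mutant log2 fold changes was 0.54, 0.95 and 0.81. Over all genes it was 0.90, 0.86 and 0.88, and in both sets the genes are not independent replicates. Members with few reads held the widest values. In striatum against cortex the 82 ran from -0.75 to 2.47 in WT and from -0.90 to 0.996 in mutants. Without members under a mean log2 CPM of 1, the ranges were -0.56 to 0.52 and -0.55 to 0.37. In hippocampus against cortex the highest values were 3.61 and 2.96 with those members and 0.30 and 0.26 without. Their part in r was not tested.

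The largest regional differences were those of Cox8b and Cox6b2, isoforms of complex IV known from muscle and from testis. Both were called higher in WT hippocampus than in WT frontal cortex, with log2 fold changes of 3.61 (edgeR adjusted p = 0.0107) and 1.82 (adjusted p = 0.0048), and Cox6b2 also in striatum (1.54, adjusted p = 0.0080). Cox8b (chr7:140898945-140900446, minus strand) rested on few reads, with 2, 6 and 3 counts in WT cortex, 5, 10 and 50 in WT striatum and 75, 35 and 28 in WT hippocampus. In Pcm1-/- mice it had 5, 9 and 2, then 6, 12 and 5, then 49, 7 and 70 counts. The libraries of a region were uneven, in the striatum and the hippocampus alike.

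Ttr separated the 18 libraries into 6 at 1968 CPM or more and 12 at 164 CPM or less. Cox8b was at 0.94 to 2.89 CPM in the 6 and at 0.07 to 0.38 CPM in the 12, without overlap. Pcm1-/- hippocampus replicate 2, the hippocampal library with least Ttr, had 0.29 CPM of Cox8b, and WT striatum replicate 3, the striatal library with most, had 1.75 CPM. Cox6b2 (chr7:4751792-4753094, minus strand) was at 1.78 to 3.39 CPM in the 6 and 0.53 to 1.87 CPM in the 12, which overlapped, and without WT striatum replicate 3 its difference between striatum and cortex was 1.13 (adjusted p = 0.029). The part of choroid plexus tissue in these values was not tested further.

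**Figure D5:**
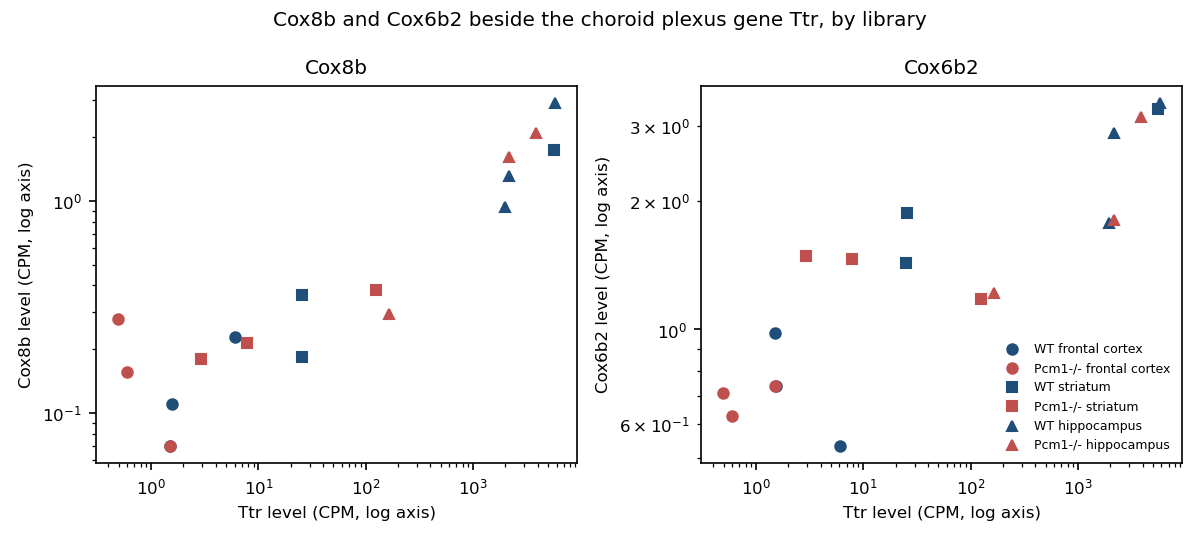
Level of Cox8b and of Cox6b2 against Ttr in each of the 18 libraries (CPM, log axes), by region and genotype; each point is a library. The 6 libraries with Ttr at 1968 CPM or more hold the 6 highest Cox8b values.

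The CpG content of the promoters varied among the isoform pairs. The 300-base window held 2 CpG dinucleotides for Cox8b and 19 for Cox8a, 10 for Cox6b2 and 17 for Cox6b1, and 7 for Cox7a1 and 20 for Cox7a2, but 10 for Cox7b2 and 5 for its main partner Cox7b, beside a median of 19 over the members and 19 over the protein-coding genes tested. Cox8b was the 1 member with fewer than 5, as were 9.27% of those genes. The 150 bases before the start of Cox8a, Cox8b, Cox6b1 and Cox6b2 are given here, 5′ to 3′ on the strand of the gene, with each CpG in capitals.
Cox8a, chr19:7217617-7217766 (-): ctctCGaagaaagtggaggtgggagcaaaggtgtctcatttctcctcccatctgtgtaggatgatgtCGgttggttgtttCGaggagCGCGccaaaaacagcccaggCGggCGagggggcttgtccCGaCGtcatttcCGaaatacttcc
Cox8b, chr7:140900447-140900596 (-): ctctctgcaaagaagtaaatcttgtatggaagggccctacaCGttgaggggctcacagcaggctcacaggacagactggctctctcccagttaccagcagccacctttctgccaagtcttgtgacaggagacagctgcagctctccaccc
Cox6b1, chr7:30626115-30626264 (-): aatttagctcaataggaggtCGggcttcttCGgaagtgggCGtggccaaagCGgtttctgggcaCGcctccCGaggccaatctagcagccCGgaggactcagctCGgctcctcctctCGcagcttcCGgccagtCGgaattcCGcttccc
Cox6b2, chr7:4753095-4753244 (-): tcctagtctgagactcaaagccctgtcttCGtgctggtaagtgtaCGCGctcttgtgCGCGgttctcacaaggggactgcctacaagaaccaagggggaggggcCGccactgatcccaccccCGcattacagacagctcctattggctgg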

How the data were processed

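Per the labels and the study's methods, stranded mRNA libraries were trimmed with Trim Galore and cutadapt, aligned to GRCm38 with STAR, kept where a read had a single position, and counted per gene with HTSeq; versions and the strand setting are not given in the sources used here. The authors deposited raw counts for each library. Members and gene lists were chosen with earlier results of these data known.

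The 17545 genes that reached 10 counts in 1 or more of 18 libraries were fitted with edgeR 4.0.16 (R 4.3.3; TMM, quasi-likelihood, Benjamini-Hochberg over all of them, called at an adjusted p under 0.05). Genotypes were fitted within a region, and regions within a genotype. DESeq2 1.42.0, other filters, other fits and left-out libraries were alternatives. Genes were named if they were isoform pairs or core subunits, highest or lowest in a complex, or among the largest or called changes. TPM was computed from the deposited counts and GENCODE lengths. The scripts were tested on simulated data. The NRF1 letters were shortened after a longer form, found in fewer members and fewer genes, had been searched.

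Animal numbers in the deposited names pair the regions: deviations of libraries of the same animal correlated at a mean r of 0.124 to 0.338, and of different animals at -0.169 to -0.0607. Counting error at these depths is small for all but the lowest members.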

Additional observations from a re-analysis of the deposited data

How the results depend on the processing

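The count of members called by genotype was 0 in striatum and hippocampus under every alternative run and in frontal cortex under all but DESeq2 and the omission of WT frontal cortex replicate 3, which each gave 1. With that library left out the cortical median was -0.0093 and the Cox6a2 estimate reversed to -0.032, in a range up to 0.52 over left-out libraries. The striatal median was -0.063 in 1 fit of all 18 libraries with lane. WT and Pcm1-/- libraries of 1 number come from different animals and no label pairs them, so the numbers were not taken as pairs. Same-number pairs had a mean r of 0.167 in cortex and 0.265 in hippocampus (lowest 0.043 and 0.096), beside -0.0833 and -0.13 for different numbers. In striatum the means were -0.0823 and 0.0444, but WT striatum libraries are numbered in another animal order than the other regions. In the order of the other regions the striatal pairs correlated at 0.063, 0.388 and 0.229. The striatal block joined libraries by number, and a block in animal order was not run. With the replicate block 0 members were called in each region.

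Regional counts moved more. In WT striatum against cortex the replicate block by animal gave 17 and 1 fit of all 18 libraries 17 (48.1% and 48.3% of all genes); in hippocampus against cortex these gave 13 and 16 and lane as a covariate 11 (37.0%, 37.7% and 33.2%); in striatum against hippocampus 1 fit of all 18 gave 13 (35.9%). Leaving out 1 library gave 7 to 9 (7 without WT striatum replicate 1 or WT frontal cortex replicate 1), 4 to 10 (10 without WT frontal cortex replicate 3 or WT hippocampus replicate 3) and 2 to 8 (2 without WT striatum replicate 1, 3 without WT striatum replicate 2 or WT hippocampus replicate 1). In mutants the ranges were 23 to 25, 14 to 28 and 13 to 29, the last with 14 without striatum replicate 2 or hippocampus replicate 1 and 13 without striatum replicate 3. Over left-out libraries the members' median ran from -0.0093 to 0.086 by genotype in cortex and from -0.13 to -0.023 in WT hippocampus against cortex, where -0.023 was without WT hippocampus replicate 1. The cause was not tested. Leaving libraries out of the mutant regional fits and of the region-by-genotype fit, and principal transcript length, were chosen after seeing the data.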
